A study of Mus musculus with 4 samples.

Results

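The glypican genes examined here are Gpc1, Gpc2, Gpc4, Gpc5 and Gpc6, and SOX2 occupancy around them was measured in mouse cortex by ChIP-seq, the sequencing of DNA pulled down with an antibody. They were chosen by name, and a SOX2 peak was counted for a gene when its centre lay inside the gene's RefSeq span or within 50 kb of it. These 5 genes, of 21631 protein-coding genes on the autosomes and chromosome X, drew 21, 18 and 20 peaks in immunoprecipitated (IP) libraries 1, 2 and 3, of 17730, 17628 and 15891 in all. The 3 SOX2 IP libraries and the 1 input library, which is unselected DNA from the same kind of chromatin, came from the cortex of 2-month-old male C57BL/6 mice described as wild type. One of the label fields lists SOX2 as transduced into all 4 samples, input and IP alike, which does not match a wild-type tissue, and it was not used. The labels do not tell separate animals from repeat pull-downs of shared chromatin, so SDs over the 3 libraries may reflect technical variation alone. The files hold peaks and no transcript levels, so the tissue was not checked against marker transcripts. The whole cortex was used, and occupancy in one cell type cannot be told apart from occupancy in another.

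Glypicans are proteins that carry heparan sulfate chains and are tethered to the outer face of the cell membrane by a lipid anchor, from which they can be released. Through those chains they bind growth factors such as FGF, Wnt, BMP and Hedgehog proteins, and in the brain they also take part in synapse formation. Gpc4 and Gpc6 are released by astrocytes and recruit AMPA-type glutamate receptors to neuronal surfaces. Gpc2, also called cerebroglycan, is made by developing neurons, Gpc1 is found on neurons, and Gpc5 transcripts are enriched in astrocytes. SOX2 is a transcription factor of neural stem cells that astrocytes also make.

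SOX2 peaks were found by all 3 libraries near Gpc2, Gpc5 and Gpc6, and by none of the 3 at Gpc4. Overlapping peaks (1 bp or more) were joined into regions, and a region holding a peak of every library is called reproducible. Gpc5 had 4 reproducible regions, Gpc6 had 3 and Gpc2 had 2, whereas Gpc1 and Gpc4 had 0. Thus 3 of the 5 glypican genes had a reproducible region, beside 46.6% of all protein-coding genes with the same 50 kb margin, and with 5 genes this share is not set apart from that background. The median glypican gene had 2 such regions and the median protein-coding gene 0. These medians are not matched for length: the median was 2 for genes over 1 Mb, which Gpc5 and Gpc6 are, and 0 for genes under 20 kb. With 1 library left out, a region needed peaks of only the remaining 2, a looser rule that favours higher counts. The 9 glypican regions then became 14 without IP library 2, 11 without IP library 1 and 12 without IP library 3. The share of all protein-coding genes with a region rose too, from 46.6% to 50.3%, 50.2% and 52.1% in that order.

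The peak nearest to a glypican transcription start lay at Gpc2, and its sequence is shown because a peak of every library covered it. RefSeq promoter sequence (GRCm38.p6, the assembly called mm10 by genome browsers) was listed for Gpc2, Gpc4 and Gpc5, and of these Gpc2 alone had a peak in its promoter. The reproducible region at chr5:138279883-138280112 overlapped 175 of the 250 bases before the Gpc2 start listed with that sequence, and its centre lay 0.0605 kb from that start. The listed start lies 89 bases inside the upper end of the RefSeq gene span used for the counts, so 89 of the bases shown, the motif among them, are within that span. The Gpc2 promoter on the minus strand, chr5:138279938-138280187, reads 5′ to 3′ as follows, with capitals marking a SOX-like motif.

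Gpc2: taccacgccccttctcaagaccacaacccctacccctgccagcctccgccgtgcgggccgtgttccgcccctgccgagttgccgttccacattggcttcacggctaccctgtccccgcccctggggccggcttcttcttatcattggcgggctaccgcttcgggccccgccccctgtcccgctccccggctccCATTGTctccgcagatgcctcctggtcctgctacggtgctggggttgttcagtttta

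The capitals are the letters ACAATG read on the opposite strand. They lie 57 to 52 bases before the listed start, inside the peak of each library and 10.5, 32.5 and 41.5 bp from the peak centres of IP libraries 1, 2 and 3. The other SOX-like motifs searched, also on both strands, were ACAAAG and, overlapping ACAATG in part, the motif AACAAT. The motif ACAATG was present in 10.7% of 32851 listed promoters of this length, and any of these SOX-like motifs in 29.6%. Among the 1821 promoters that a reproducible region overlapped, which were 5.54% of the listed ones, the shares were 11.0% and 30.3%. The octamer motif ATGCAAAT was held by 1.60% of promoters and the palindromic NFI motif by 0.0365%, and neither occurred before the Gpc2 start. No searched motif occurred in the 250 bases before the starts of Gpc4 and Gpc5, where no peak lay in any library. GC content was 66.4% in the Gpc2 promoter, 68.4% in that of Gpc4 and 51.2% in that of Gpc5, and its median over all listed promoters was 52.4%.

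The single peak counted for Gpc1 lay on the promoter of another gene. Dusp28 encodes a phosphatase, and the peak of IP library 3 at chr1:92906707-92906865 overlapped 127 of the 250 bases before its start. The Dusp28 promoter on the plus strand, chr1:92906739-92906988, is shown because it carries the only peak within 50 kb of Gpc1, and it held none of the searched motifs, hence no capitals.

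Dusp28: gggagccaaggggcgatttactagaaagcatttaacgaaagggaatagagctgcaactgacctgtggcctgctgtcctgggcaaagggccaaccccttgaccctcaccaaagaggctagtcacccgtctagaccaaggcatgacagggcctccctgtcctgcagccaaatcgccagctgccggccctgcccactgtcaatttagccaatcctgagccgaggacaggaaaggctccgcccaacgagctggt

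Peak strength below is the authors' normalized tag value, in which each library is scaled to 10000000 sequenced tags. The lowest values among called peaks were 3.30, 3.08 and 2.87 in IP libraries 1, 2 and 3, and the medians over all peaks were 6.06, 6.16 and 5.25. The Gpc2 promoter region held 5.23, 5.23 and 3.58 normalized tags in IP libraries 1, 2 and 3 (4.68 ± 0.953, SD, n = 3). This was the weakest of the 9 glypican regions, and 95.2% of all reproducible regions were stronger. Its enrichment over the input, as the authors give it, was 17.2-fold, 8.62-fold and 23.6-fold, and in IP library 3 the input stood at the floor of 0.5 tags that the caller sets, so that fold depends on the floor. Over the surrounding 10 kb the enrichment was 6.54 ± 1.10-fold (SD, n = 3).

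The other reproducible region of Gpc2, at chr5:138272736-138272995, lay 0.791 kb outside the end of the gene. It held 5.23, 6.16 and 6.45 normalized tags in IP libraries 1, 2 and 3 (5.95 ± 0.637, SD, n = 3). IP library 3 was the highest here and the lowest at the promoter. The input was at its floor of 0.5 tags in all 3 comparisons, which gave folds of 34.5, 40.6 and 42.5. A further region, at chr5:138263969-138264133, had 9.36 normalized tags in IP library 1 and 4.00 in IP library 2 and no peak in IP library 3. It overlapped 76 of the 250 bases before the start of the noncoding RNA 6330418K02Rik, a promoter of 68.0% GC with none of the motifs.

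Gpc2 is 6.37 kb long, the shortest of the 5 genes, and lies in a crowded stretch with 5 other protein-coding genes within 50 kb. Both of its reproducible regions lay within the span of Stag3, a cohesin subunit gene of meiotic cells, and the region outside Gpc2 also lay within Gal3st4, a sulfotransferase gene. When a region counted only for the nearest protein-coding gene, with ties going to the shorter gene, Gpc2 had 1. Position alone does not show which of these genes a region acts on.

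**Figure D1:**
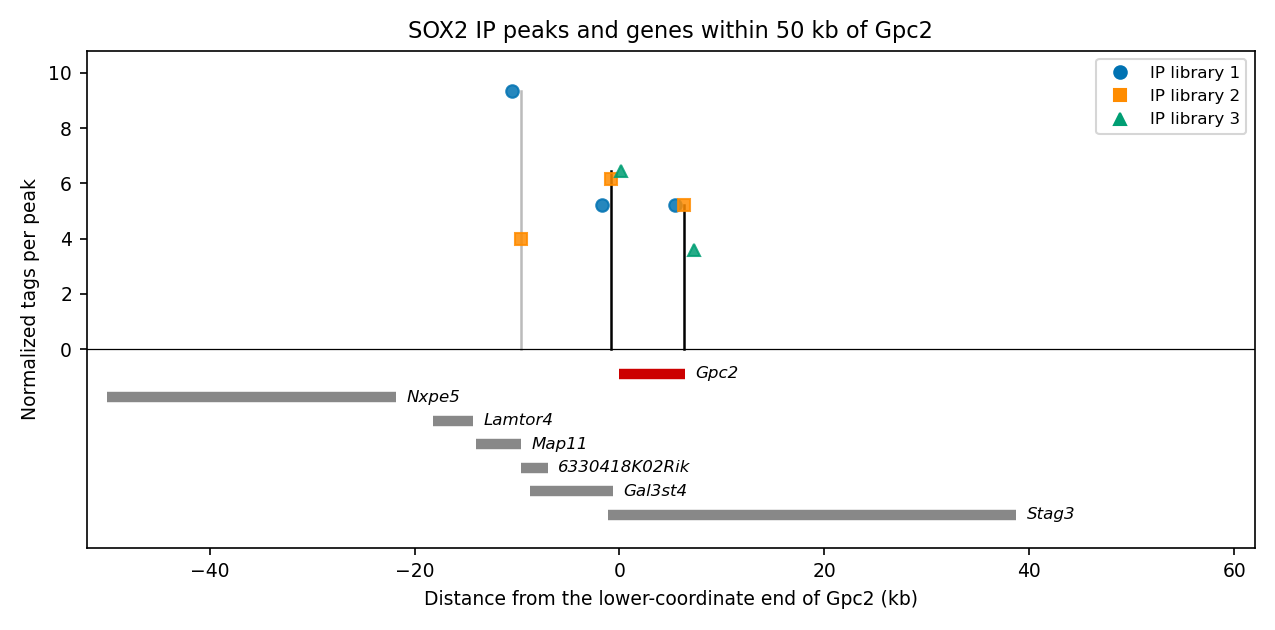
SOX2 peaks within 50 kb of Gpc2, with distance from the lower-coordinate end of the gene in kb across and normalized tags per peak upward (points, 1 per library, nudged sideways so that equal values show; black stems, found in all 3 libraries; grey stem, found in 2). The bars below are gene spans, Gpc2 in red; both black stems stand over Stag3, and no peak lies to the right of Gpc2.

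Gpc5 carried the most peaks of the 5 genes, with 11, 9 and 9 in IP libraries 1, 2 and 3. It spans chr14:115092201-116525192, or 1433 kb. Joined across libraries these peaks made 15 regions, of which 4 were found in all 3 libraries, 6 in 2 and 5 in 1. The strongest, at chr14:115095656-115095817, lay inside the gene, 3.52 kb past the transcription start. It held 10.7, 10.2 and 8.60 normalized tags in IP libraries 1, 2 and 3 (9.83 ± 1.10, SD, n = 3), and 29.9% of all reproducible regions were stronger. Its 3 peak centres fell within 6 bp of each other, the closest match among the 9 glypican regions, and the input held 2.00 tags in each comparison, for 17.7-fold, 16.7-fold and 14.2-fold enrichment.

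A second reproducible region lay upstream of Gpc5, 10.2 kb before the start, at chr14:115081909-115082097. It held 9.36, 7.08 and 5.49 normalized tags in IP libraries 1, 2 and 3 (7.31 ± 1.95, SD, n = 3). Library 1 was the highest and library 3 the lowest, a spread wider than at the strongest region. Deep in the gene, 353 kb from its lower end, a region at chr14:115445129-115445377 held 8.26, 8.93 and 4.54 normalized tags (7.24 ± 2.37, SD, n = 3). The input was at its floor of 0.5 tags there in all 3 comparisons. A separate region 0.367 kb away held 6.61 normalized tags in IP library 1 and 6.21 in IP library 3, with no separate peak in IP library 2. The fourth, at chr14:116337572-116337769, 188 kb from the upper end, was weaker, with 4.40, 6.46 and 4.30 normalized tags (5.05 ± 1.22, SD, n = 3).

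The 4 reproducible regions of Gpc5 left a long stretch of the gene empty, and whether so few regions are unevenly placed was not tested. Between the region at 353 kb and that at 1245 kb from the lower end lay 892 kb, or 62.3% of the gene's length, with no reproducible region. With peaks of any library counted, the longest empty stretch was 442 kb. No protein-coding gene other than Gpc5 lay within its window. The window did reach the Mir17hg locus, which encodes a cluster of microRNAs, and the outermost peak, with 4.00 normalized tags in IP library 2 alone, lay 1.28 kb from Mir17.

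Gpc6 spans chr14:116924920-117979529, or 1055 kb, on the same chromosome as Gpc5 and 399.7 kb from it. It had 7, 6 and 8 peaks in IP libraries 1, 2 and 3. These made 12 regions, all of them inside the gene, of which 3 were found in all 3 libraries, 3 in 2 and 6 in 1. The strongest, at chr14:116979851-116980076 and 55.0 kb inside the lower end, held 9.63, 9.54 and 9.79 normalized tags (9.65 ± 0.127, SD, n = 3). This was the most even of the 9 glypican regions across libraries. The input held 3.00, 3.00 and 2.00 tags against it, so its enrichment was 10.6-fold, 10.5-fold and 16.1-fold. Another region, at chr14:117019108-117019275 and 94.3 kb inside the lower end, held 6.06, 4.62 and 6.93 normalized tags (5.87 ± 1.17, SD, n = 3). The last, at chr14:117895807-117896010 and 83.6 kb from the upper end, held 6.61, 4.92 and 3.82 (5.12 ± 1.41, SD, n = 3) and lay within the noncoding RNA gene Gm52110.

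As in Gpc5, a long part of Gpc6 held no reproducible region, here 877 kb or 83.1% of the gene. Peaks of 1 or 2 libraries did lie within it, and with peaks of any library counted the longest empty stretch was 249 kb. Without IP library 2, when peaks of only the remaining 2 libraries were required, the longest empty stretch was 450.1 kb in Gpc6 and 659.7 kb in Gpc5. Under the same looser rule it was 627.9 and 892.4 kb without IP library 1, and 876.7 and 675.0 kb without IP library 3. At the lower end of Gpc6 itself, 0.352 kb inside the gene, only IP library 3 had a peak, with 4.78 normalized tags. The 299.7 kb between the windows of Gpc5 and Gpc6 held 2 regions, neither of them reproducible.

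**Figure D2:**
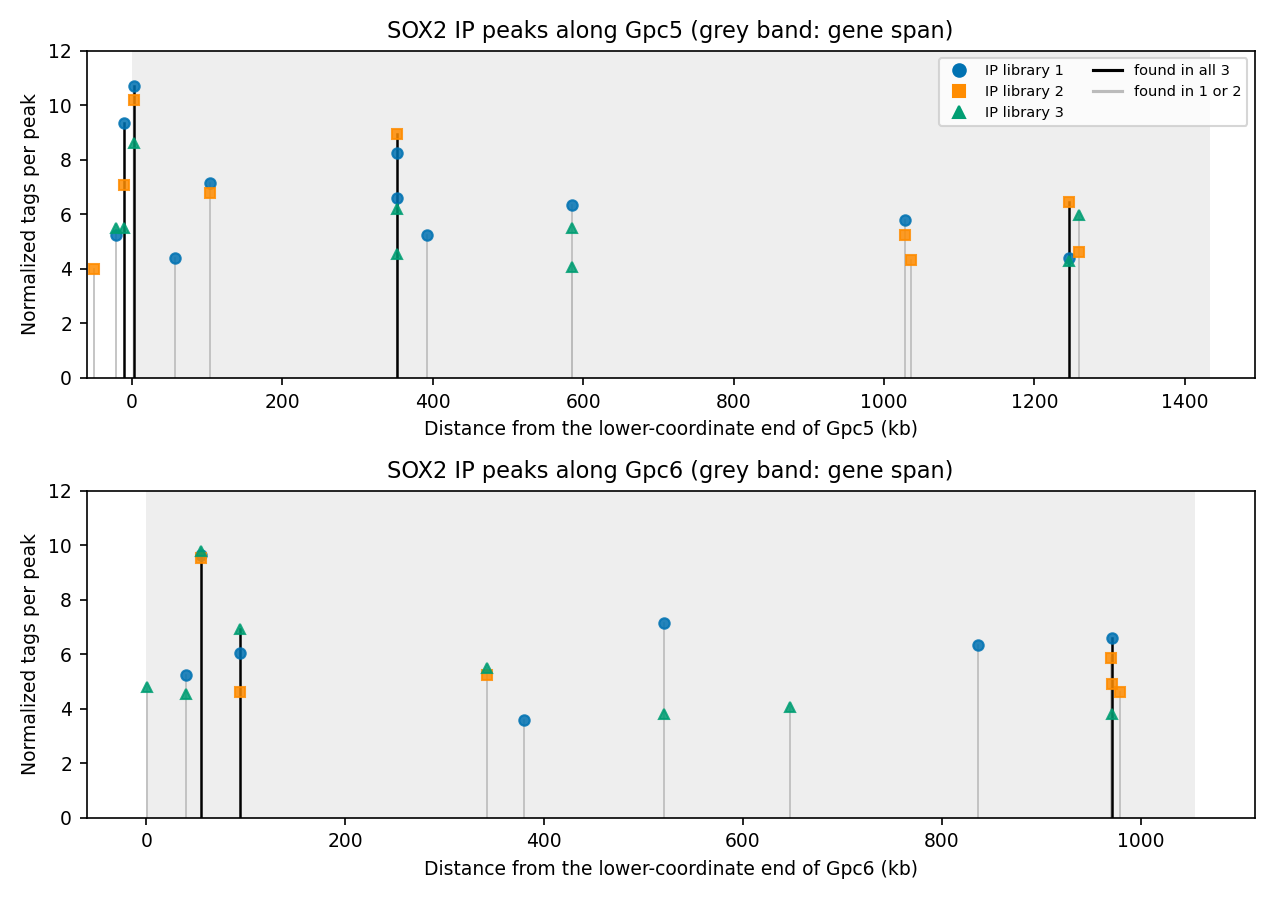
SOX2 peaks along Gpc5 (top) and Gpc6 (bottom), with distance from the lower-coordinate end of the gene in kb across and normalized tags per peak upward (points, 1 per library; black stems, regions found in all 3 libraries; grey stems, found in 1 or 2; grey band, gene span). The highest points of both genes stand near the lower end, at 3.54 kb in Gpc5 and 55.0 kb in Gpc6.

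Gpc4 and Gpc1 had no reproducible region. Gpc4 lies on chrX:52051007-52164923 and is 114 kb long, and it had 0 peaks in each of the 3 libraries. A count of 0 in its window of 214 kb allows up to 14.0 reproducible regions per Mb, taken as 3 counts over the window (the 95% exact Poisson interval reaches 17.2), so the window is too short to set this gene below the average. Of the 2200 protein-coding genes of 100 to 500 kb, on the autosomes and chromosome X, 825 had 0 reproducible regions and 62.5% had at least 1. The mice were male, so Gpc4 lay on a chromosome held in 1 copy per cell, unlike the autosomes. What this copy number did to the peak counts was not tested. Gpc1, at chr1:92831645-92860211 and 28.6 kb long, had 0, 0 and 1 peaks in IP libraries 1, 2 and 3. That peak had 3.58 normalized tags and lay 46.6 kb from the gene. Among genes of 20 to 100 kb, 3790 of 7549 had 0 reproducible regions and 49.8% had at least 1. With peaks of any library counted, 4 of the 5 glypican genes had a peak, beside 71.8% of all protein-coding genes.

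By strength, the leading regions of Gpc5 and Gpc6 did not differ beyond the spread between libraries. Each leading region was picked by these same values, from 4 reproducible regions for Gpc5, 3 for Gpc6 and 2 for Gpc2. A larger number of regions favours a higher maximum. The ratio of Gpc5 to Gpc6 was 1.02 ± 0.124 (SD, n = 3 libraries). The leading region of Gpc5 was 1.68 ± 0.357 times that of Gpc2, and the 3 libraries of Gpc5 (8.60 to 10.7 normalized tags) did not overlap those of Gpc2 (5.23 to 6.45). The remaining 7 regions had means of 4.68 to 7.31, and each overlapped its neighbour in that order in its values by library. The promoter region of Gpc2 (3.58 to 5.23) lay below the upstream region of Gpc5 (5.49 to 9.36) in every library. By their means, only the leading regions of Gpc5 and Gpc6 exceeded 7.63 normalized tags, the median over all 9334 reproducible regions.

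**Figure D3:**
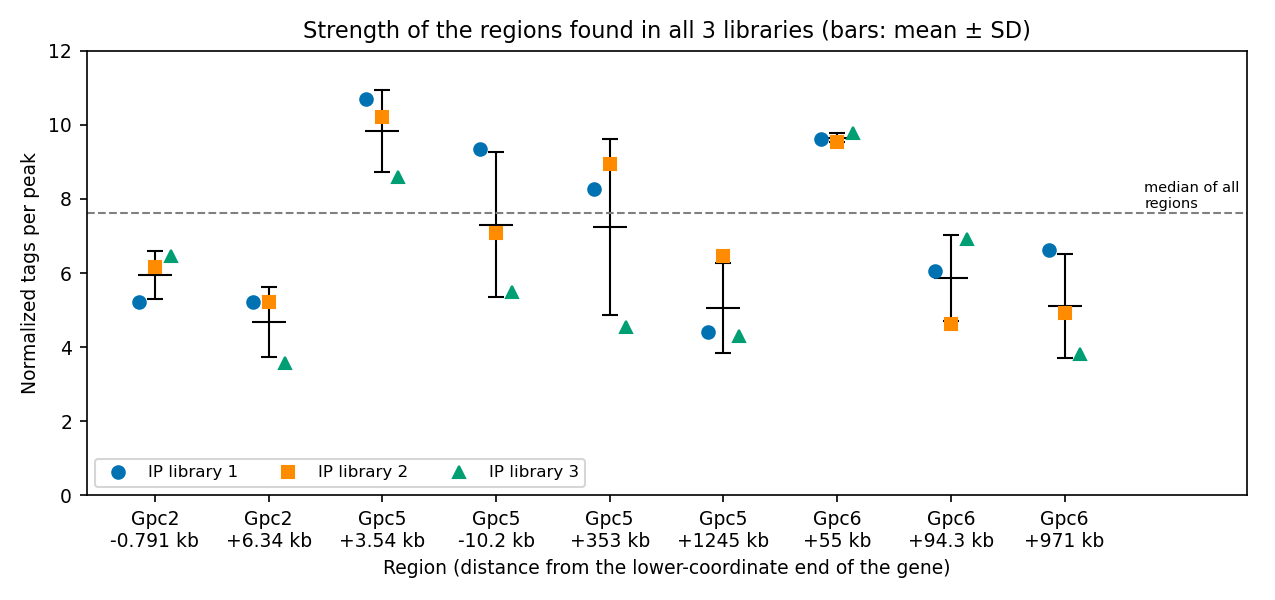
Normalized tags per peak (upward) in the 9 reproducible regions of Gpc2, Gpc5 and Gpc6, each named by its distance from the lower-coordinate end of the gene (points, libraries; bars, mean ± SD, n = 3; dashed line, median of all reproducible regions). The points of the leading Gpc5 and Gpc6 regions all lie above the line, and those of both Gpc2 regions all lie below it.

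The counts were then related to gene length. Over the windows of all protein-coding genes, with each base counted once, there were 4.67 reproducible regions per Mb. The 5 glypican windows, 3.14 Mb in all, had 2.87 per Mb (95% exact Poisson interval 1.31 to 5.45, which includes the average rate), or 9 regions where the average rate gives 14.6. Without IP library 2 the densities were 4.46 per Mb for the glypican windows and 5.44 for all protein-coding genes, and with peaks of at least 8-fold enrichment they were 2.55 and 2.78. Such intervals cover counting error only. Gpc5 had 2.61 per Mb (interval 0.711 to 6.68) and Gpc6 had 2.60 (0.536 to 7.59), and these intervals overlap widely. Without IP library 2, Gpc5 had 7 regions (4.57 per Mb) and Gpc6 had 5 (4.33 per Mb), and without IP library 3 they had 6 (3.91 per Mb) and 3 (2.60 per Mb). Gpc2 had 18.8 per Mb from 2 regions in 106 kb, with an interval of 2.28 to 67.9 that shows how little a short window fixes.

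Summed over windows, long genes had fewer regions per Mb than short ones, and Gpc5 and Gpc6 are therefore set beside genes of like length. The summed density was 6.45 per Mb for genes under 20 kb, 5.86 for 20 to 100 kb, 4.92 for 100 to 500 kb, 3.25 for 500 kb to 1 Mb and 2.13 for over 1 Mb. In these sums, unlike in the rate over all protein-coding genes, bases and regions shared by overlapping windows were counted again for each gene. What this repeated counting did to the trend with length was not tested. A reproducible region was found for 72.6% of the 168 genes of 500 kb to 1 Mb and for 79.7% of the 59 genes over 1 Mb. The genes over 1 Mb had a median of 2 regions and 1.75 per Mb. The median density per gene did not follow the summed one, at 0 for both classes under 100 kb, 3.88 per Mb for 100 to 500 kb and 1.61 for 500 kb to 1 Mb. Within the class of 59 genes over 1 Mb, 15 genes had more regions than Gpc5 and 40 had fewer, and 19 had more than Gpc6 and 31 fewer. By density, 15 of the 59 exceeded Gpc5 and 16 exceeded Gpc6, so both values lie above the middle of their class and below the rate over all genes. The Poisson intervals of both genes include that rate and the class median, so these counts set neither gene apart from them. Gpc2, with its 2 regions, was exceeded in number by 783 of the 11655 genes under 20 kb, of which 40.9% had a reproducible region. Among 225 other genes over 500 kb, the closest in regions per Mb to both Gpc5 and Gpc6 were Cdkal1 (2.62), Ctnna2 (2.50) and Kcnma1 (2.46).

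**Figure D4:**
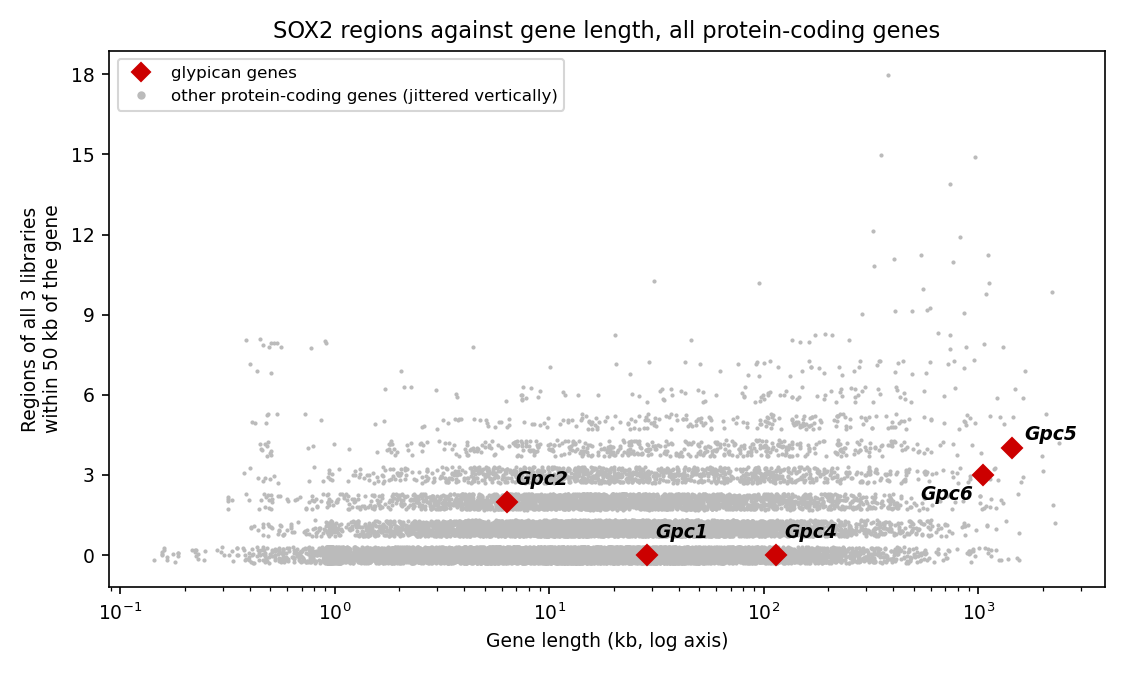
Number of reproducible regions within 50 kb of a gene (upward) against gene length in kb (across, log axis) for all protein-coding genes (grey points, jittered vertically) and the 5 glypican genes (red diamonds). Gpc5 and Gpc6 stand at 4 and 3 regions among the longest genes, where the range runs from 0 to 11, and Gpc1 and Gpc4 stand at 0.

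Most regions around the glypican genes were not found in every library. Of the 31 regions in the 5 windows, 9 (29.0%) were found in all 3 libraries, against 34.5% of the 27083 regions of the whole series. Another 10 were found in 2 libraries and 12 in 1. Regions of 1 library held 3.58 to 6.33 normalized tags with a median of 4.36. Averaged over the libraries with a peak, regions of 2 had 4.88 to 6.96 with a median of 5.50, and reproducible regions had 4.68 to 9.83 with a median of 5.95. These ranges overlap. IP libraries 1, 2 and 3 held 36330529, 32492927 and 41875666 tags, and the tag threshold that the caller listed for its false discovery rate was 14, 13 and 16. That threshold is not a minimum of the normalized tags given here.

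Other genes of heparan sulfate proteoglycan biology carried regions at about the background share when gene length was left aside. Of 48 such genes, 24 (50.0%) had a reproducible region, beside the 46.6% of all protein-coding genes, and the median was 0.5 regions. The 46.6%, here and below, is not matched for length. Under 20 kb the count was 6 of 9 (40.9% of all genes that long), and for 20 to 100 kb 10 of 18 (49.8%). For 100 to 500 kb it was 7 of 18 (62.5%), for 500 kb to 1 Mb 0 of 2 (72.6%) and over 1 Mb 1 of 1 (79.7%). Among core proteins that also carry heparan sulfate the count was 3 of 8 (37.5%). Tgfbr3, the co-receptor betaglycan, had a region of 19.8 ± 4.19 normalized tags inside the gene, and Sdc4, a syndecan, had 4 regions, the strongest with 13.3 ± 2.17 (SD, n = 3 here and for the genes that follow). Sdc3, the syndecan of neural tissue, reached 8.85 ± 1.30.

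Enzymes that start and lengthen the chain had regions at 7 of 11 genes (63.6%, beside 46.6% of all protein-coding genes). Extl3, an exostosin-like transferase, was the strongest with 22.2 ± 6.22 normalized tags and had 4 regions. Xylt1, the xylosyltransferase that attaches the chain to its core protein, had 9 regions within reach of a 287 kb gene, or 23.3 per Mb, the strongest with 14.1 ± 1.40. The strongest region counted for the glucuronyltransferase gene B3gat3 (15.6 ± 1.80) lay 39.9 kb away inside Eef1g, and that of Extl1 (6.89 ± 1.43) lay 23.7 kb away.

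Enzymes that sulfate or epimerize the chain had regions at 9 of 17 genes (52.9%, beside 46.6% of all). The sulfotransferase gene Hs3st3a1 held 18.0 ± 4.00 normalized tags inside the gene. Regions of Hs3st2 (17.3 ± 1.21), Ndst2 (13.0 ± 2.86) and Ndst1 (9.88 ± 2.55) lay 38.3, 44.1 and 34.1 kb outside, that of Ndst2 within Camk2g. Of 4 genes for remodelling or release, 2 had a region, again beside 46.6% of all. Notum, an extracellular hydrolase, had 7.29 ± 2.87 at a region within Mafg, and Sulf2, which removes sulfate groups, had 6.40 ± 0.952 at 32.4 kb outside.

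Among 8 synaptic partners and targets, 3 had a region (37.5%, beside 46.6% of all). Ptprd, a receptor phosphatase of synapses, held 12.4 ± 2.93 normalized tags inside the gene. At 2271 kb it is longer than Gpc5, yet it had 1 reproducible region against the 4 of Gpc5, or 0.422 per Mb against 2.61. The region counted for the receptor phosphatase gene Ptprf (5.40 ± 0.438) lay within Kdm4a. Gria2, an AMPA receptor subunit gene, had 4.99 ± 0.227 at 5.62 kb outside. With the gene span alone and no margin, 10 of the 48 genes had a region, beside 14.8% of all protein-coding genes.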

How the data were processed

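SOX2 ChIP-seq of mouse cortex gave 3 IP libraries, and the input enters through values in their peak lists. Bowtie 1.0.0, HOMER 4.7 and the mm10 build are named in the submitters' processing notes. HOMER findPeaks (factor mode) was run on each library by itself, per the file headers, with a minimum of 4-fold over both the input and the local 10 kb. The authors' p-value limit was 0.0001 and their FDR 0.001. Per the file headers, the deposited signal is tags per peak scaled to 10000000, the ratio is the fold of IP over input tags, the score is a capped number of tags, and total tags are a whole count in IP library 2. The deposited focus ratio, a fraction, was not used.

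Coordinates are the files' own. Peaks overlapping by 1 bp were joined in chains. Gene spans came from RefSeq GRCm38.p6, which gives no exons. Named genes were all 5 members and, from each role in the heparan sulfate list, up to 4 with the strongest reproducible region. The members and lists were chosen with earlier results of these data known, and with 1 tissue and 1 condition there are no groups of samples to compare, so no test was made. Joining and counting were tested on simulated data. The alternatives tried left out each library, changed the margin, overlap, fold minimum or gene assignment, or replaced normalized tags by the score. The scripts ran in Python 3.11.15 with matplotlib 3.10.9, scipy 1.17.1, pandas 2.3.3 and numpy 2.4.6.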

Additional observations from a re-analysis of the deposited data

How the results depend on the processing

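In 10 of 10 alternatives Gpc4 had 0 reproducible regions, and Gpc2, Gpc5 and Gpc6 had at least 1. Gpc1 gained 1 with a margin of 100 kb, which made 4 glypican genes with a region instead of 3. The share of all protein-coding genes was then 60.8% instead of 46.6%, and over the 10 alternatives it ran from 14.8% with the gene span alone to that 60.8%. These shares are not matched for length, and Gpc5 and Gpc6 are longer than 1 Mb. The number of glypican regions was 9, ran from 11 to 14 when 1 library was left out, and was 19 with regions of at least 2 libraries. The density of 2.87 per Mb ran from 3.51 to 4.46 when 1 library was left out and was 6.06 with regions of at least 2 libraries. It stayed below that over all protein-coding genes in each of the 10 alternatives, but the nearest-gene alternative could not have come out otherwise. In it the glypican genes could only lose regions, while the rate over all protein-coding genes was kept at 4.67 per Mb. The comparison with all protein-coding genes is not matched for length: Gpc5 and Gpc6 make 1.53 and 1.15 of the 3.14 Mb. Both stayed above the median density of genes over 1 Mb in every alternative for libraries, overlap, fold or margin. With the 8-fold minimum they had 2.61 and 1.73 per Mb, beside a median of 0.894. Without IP library 2 Gpc5 had 7 regions instead of 4 and Gpc6 had 5 instead of 3. With peaks of at least 8-fold enrichment the densities were 2.55 per Mb for the glypican windows and 2.78 for all protein-coding genes, closer than the 2.87 and 4.67 per Mb reported for the same 2 sets. The heparan sulfate list had 10 genes with a region for the gene span alone, 13 with a margin of 10 kb and 14 with the nearest gene only, against 24, beside 14.8%, 26.4% and 22.5% of all protein-coding genes, against 46.6%. Fewer bases per gene, or fewer genes per region, are part of these 3 settings by construction. Leaving out 1 library likewise required 2 libraries instead of 3, which favours higher counts by construction. The density over all protein-coding genes then ran from 5.36 to 5.88 per Mb. No paired analysis was possible because no test between groups of samples was made; the strength ratios between genes were formed within each library. What depth limits was not tested: the libraries of 36330529, 32492927 and 41875666 tags gave 17730, 17628 and 15891 peaks, and the weakest glypican peaks held 3.58 normalized tags, beside 2.87 to 3.30 for the lowest peaks of any library.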
